A study of Homo sapiens with 6 samples.

Results

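The genes described here are 10 genes of inflammasome, Toll-like receptor 4 and interleukin 18 signalling: NLRP3, PYCARD, CASP1, CASP4, GSDMD, TLR4, MYD88, IL18, IL18RAP and IL1RAP. They were chosen by name, and all 10 were found by Ensembl identifier among the 18798 genes of the deposited table and passed the filter on low counts with 14797 genes in all. RNA-seq counts came from 6 libraries of U937, an established human line of monocytic origin, in 2 groups of 3. Control replicates 1 to 3 were separate lines with control plasmids. The ΔNSPs group held 3 independent clones from which the neutrophil serine protease genes CTSG, ELANE and PRTN3 had all been depleted, called clones 1 to 3 below. All lines had been transduced and kept in medium with geneticin, with no stimulus named in the labels. Each ΔNSPs library is thus 1 clone, and p-values measure the spread between lines and clones.

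An inflammasome is a protein platform on which a sensor such as NLRP3 and the adaptor ASC, the product of PYCARD, activate caspase-1. Caspase-1 matures interleukin 18 and interleukin 1 beta and cleaves gasdermin D, whose fragments form pores in the plasma membrane. Lipopolysaccharide is sensed at the surface by TLR4, which signals through the adaptor MyD88, and in the cytosol by caspase-4. Interleukin 18 signals through a binding chain, IL18R1, and an accessory chain, IL18RAP, while IL1RAP is the accessory chain shared by receptors for interleukin 1 and interleukin 33. In monocytic cells these steps are set by transcript level, by processing and by secretion, and the counts measure the first alone.

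Libraries held 11476619 to 13782854 counts. Levels are given in CPM, which sets each count against the scaled total of its library, and 3 counts, taken as the floor, came to between 0.214 and 0.26 CPM. The depleted genes were lower in each clone than in any Control line. CTSG was at 45.2 to 135.7 CPM in ΔNSPs against 1895 to 2752 CPM in Control. ELANE was at 1.89 to 41.8 against 969.6 to 1325 CPM, and PRTN3 at 0.855 to 63.2 against 146.9 to 538.5 CPM. Their edgeR adjusted p-values were 0.0215, 0.145 and 0.217, so ELANE and PRTN3 did not pass 0.05. Of 12 monocyte and myeloid markers 11 were in the table, with a summed level of 933.5 to 1030 CPM in Control and 839.8 to 1195 CPM in ΔNSPs. CD33, SPI1, CEBPA and LYZ were at 59.3 CPM or more in all libraries, CD14 had 4 counts at most, CD68 was at 0.303 to 1.14 CPM, and CD163 was not in the table. ITGAM was 2.14-fold, CSF1R 3.1-fold and MPO 3.17-fold higher in ΔNSPs on average, with overlapping groups and edgeR adjusted p-values of 0.241, 0.263 and 0.319. CSF1R had 5 to 56 and MPO 2 to 49 counts per library, both most in clone 2. The ratio of ΔNSPs to Control was 1.46 for LYZ, 1.41 for CD14 and 1.15 for SPI1. It was 1 for FCGR1A, 0.997 for CD68, 0.978 for CD33, 0.942 for CEBPA and 0.89 for CD4. Over all genes, the deviations of Control replicate 1 from its group mean correlated with those of clones 2 and 3 (0.302 and 0.29). Those of clone 1 correlated with Control replicates 2 and 3 (0.384 and 0.378).

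Between the groups, the largest difference among the 10 genes was in IL18RAP, which was 4.25-fold higher in ΔNSPs on average. CASP1 (1.46-fold), MYD88 (1.19-fold) and PYCARD (1.09-fold) were also higher, with each clone above each Control line. NLRP3, TLR4, GSDMD, IL1RAP and CASP4 overlapped between the groups, and IL18 was far lower in clone 3 alone. None of the 10 passed an adjusted p of 0.05 in edgeR's quasi-likelihood test over all genes: 0 of 10 were called, where 0.0203% of all tested genes were. The depleted genes ELANE and PRTN3 did not pass it either. At an unadjusted p under 0.05 edgeR had 3 (IL18RAP, CASP1 and MYD88), all higher, against 9.23% of all tested genes higher and 8.6% lower. DESeq2 called 1, IL18RAP, against 3.98% of the genes it adjusted (1.91% higher), and had 4 at an unadjusted p under 0.05, all higher, against 9.38% in that direction. Limma voom called 0, against 0.0135% of all tested genes, and had 5 at an unadjusted p under 0.05, against 24.5%. IL18RAP, CASP1, MYD88 and TLR4 were higher there. IL18 was lower, with a log2 difference of -1.27 (limma voom adjusted p = 0.161). The median log2 difference of the 10 genes was 0.26, and it was 0 over all tested genes. Every clone lay above every Control line for 4 of the 10, against 12.2% of all tested genes, and for none did every clone lie below, against 11.7%.

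**Figure D1:**
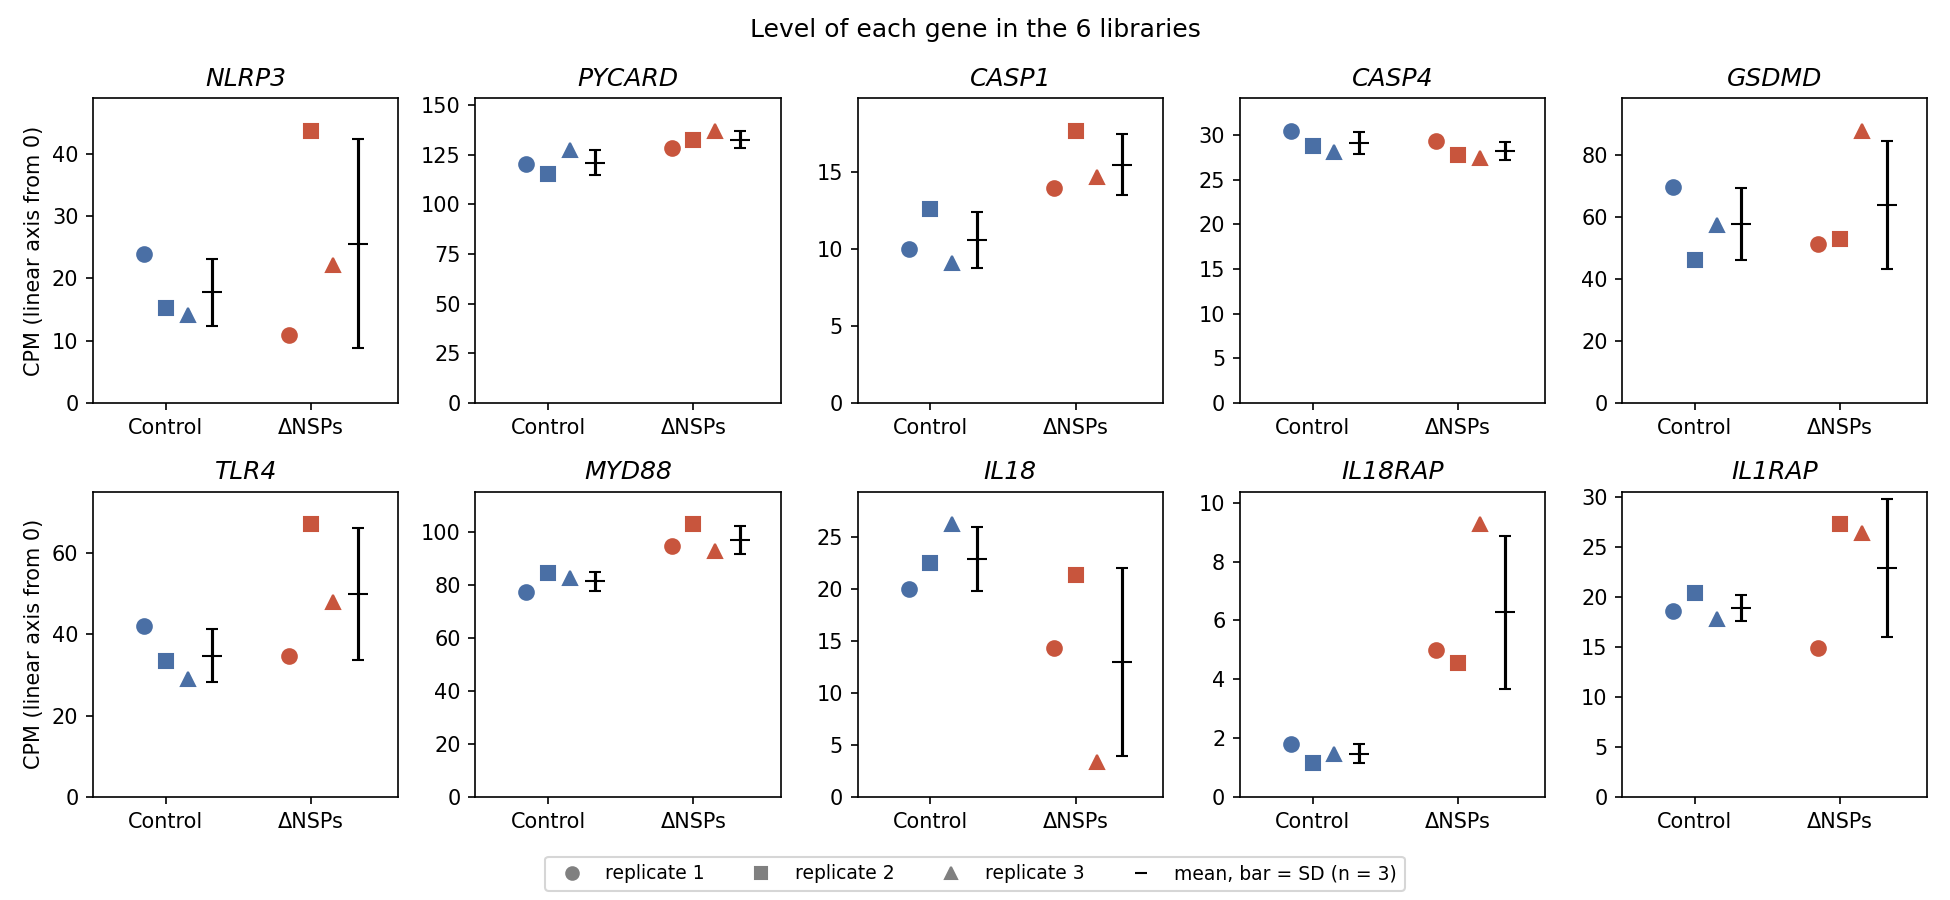
CPM of each of the 10 genes (vertical axes, linear from 0) in the 3 Control and the 3 ΔNSPs libraries, with symbols for the replicate number and the mean with SD beside each group (n = 3). IL18RAP, CASP1, MYD88 and PYCARD lie above all Control points in each clone, NLRP3 and TLR4 are highest in clone 2, and IL18 is at 3.37 CPM in clone 3.

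The accessory chains are introduced with their promoters, because IL18RAP differed most between the groups and its relative IL1RAP overlapped between them. The sequences are from RefSeq (GRCh38.p14, plus strand, 5′ to 3′). They run from 250 bases before the most upstream RefSeq start of IL18RAP (chr2:102418371-102418620) and before the single start of IL1RAP (chr3:190513835-190514050), and end where a GENCODE exon or the start begins. Capitals mark the 1 match found to any of 6 motifs, searched on both strands.
IL18RAP: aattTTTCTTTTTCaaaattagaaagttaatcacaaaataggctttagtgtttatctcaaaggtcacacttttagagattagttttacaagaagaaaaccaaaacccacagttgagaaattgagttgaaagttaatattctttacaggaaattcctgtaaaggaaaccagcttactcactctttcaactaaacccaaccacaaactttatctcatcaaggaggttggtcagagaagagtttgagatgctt
IL1RAP: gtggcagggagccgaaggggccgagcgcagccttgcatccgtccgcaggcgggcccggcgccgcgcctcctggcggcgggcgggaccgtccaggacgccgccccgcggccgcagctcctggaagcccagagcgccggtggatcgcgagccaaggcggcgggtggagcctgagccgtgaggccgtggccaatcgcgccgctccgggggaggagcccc
The motifs were the PU.1 core GAGGAA, AP-1 (TGANTCA), C/EBP (TTGCNNAA), the STAT element GAS (TTCNNNGAA), the core of the interferon-stimulated response element (GAAA, any 2 bases, then GAAA) and the NF-kB consensus. The match in IL18RAP was to the interferon element, on the minus strand, and started 246 bases before the RefSeq start. Of all 35116 RefSeq promoter entries, 3.02% held such a match in the same 250-base window. For the other motifs searched the shares were 23.6% (PU.1 core), 9.96% (NF-kB), 9.05% (C/EBP), 6.57% (AP-1) and 6.57% (GAS). The entries were not matched to the stretch in base composition. None of the 6 was found in the IL1RAP stretch, where 20.4% of entries of that length held the PU.1 core and 8.72% the NF-kB consensus. The stretches differed in composition, at 32.4% G and C for IL18RAP and 79.2% for IL1RAP, against medians of 58% and 57.9% over all entries. A match is a description of the letters and no evidence of binding.

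Interleukin 18 and its receptor gave the widest spread of values. IL18RAP (ENSG00000115607), the signalling chain that interleukin 18 needs once bound, lies on chromosome 2 of GRCh38 (102418689 to 102452565). It was at 1.79, 1.16 and 1.47 CPM in Control replicates 1 to 3 (21, 16 and 17 counts) and at 4.99, 4.54 and 9.26 CPM in clones 1 to 3 (70, 60 and 110 counts). All clones were above all Control lines, and the groups did not overlap even at the exact Poisson limits: the highest 95% upper limit in Control was 2.73 CPM and the lowest lower limit in the clones 3.47 CPM, which cover counting error only. The means were 1.47 ± 0.314 CPM in Control and 6.27 ± 2.61 CPM in ΔNSPs (SD, n = 3), a log2 fold change of 2.08 (SE 0.36). IL18RAP ranked 38 of 14797 by p in edgeR and had an adjusted p of 0.16 there, 0.000282 in DESeq2 and 0.0798 in limma voom. Without clone 1, edgeR called it (log2 difference 2.22, adjusted p = 0.026), in a fit that called 6.17% of all tested genes (3.04% higher). Without any other single library its adjusted p was between 0.142 and 0.532. In the earlier work on these data this gene was noted for its difference, so the values here are no independent support for it.

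IL18RAP lies in a cluster of interleukin 1 receptor family genes. IL18R1, the chain that binds interleukin 18, ends 19913 bases upstream of it. IL18R1 was at 19.2, 17.1 and 12.7 CPM in Control and at 30.4, 18.6 and 20.6 CPM in the clones. The groups overlapped, since clone 2 lay below Control replicate 1, and the log2 difference was 0.5 (SE 0.23; edgeR adjusted p = 0.3). There were 0.0678 to 0.116 IL18RAP counts for each IL18R1 count in Control and 0.164, 0.244 and 0.451 in clones 1 to 3. IL1R1, the receptor chain for interleukin 1, had 1 to 10 counts per library and was too low to be tested, and IL1R2, IL1RL1 and IL1RL2 were not in the table. The median log2 ratio to the Control mean of 64 expressed genes within 10 Mb of IL18RAP was -0.02, -0.01 and -0.63 in clones 1 to 3, while that of IL18RAP itself was 1.49, 1.37 and 2.32. The clone with the highest IL18RAP level was thus the one whose neighbouring genes were lowest.

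IL18 (ENSG00000150782; chromosome 11, 112143251 to 112164117) encodes the cytokine itself, which is made as an inactive precursor. It was at 20, 22.5 and 26.2 CPM in Control replicates 1 to 3 and at 14.3, 21.3 and 3.37 CPM in clones 1 to 3. Clone 3 stood alone, with 40 counts (exact Poisson 95% limits 28.6 to 54.5) where the other libraries had 200 to 310. Clone 2 was within the range of the Control lines and clone 1 was below it. The group means were 22.9 ± 3.1 and 13 ± 9.02 CPM, and the log2 difference of -0.81 (SE 0.51; edgeR adjusted p = 0.431) moved to -0.36 without clone 3 and to -1.36 without clone 2. A lowest library as far below the next one as for IL18 (2.03 on the log2 CPM scale) was found in 0.892% of tested genes. The 72 expressed genes within 10 Mb had median log2 ratios of -0.02, -0.04 and -0.02 in clones 1 to 3, so the low IL18 level of clone 3 was not shared by its neighbours.

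IL18BP, the soluble decoy that captures interleukin 18, was at 19.2, 17.8 and 19.1 CPM in Control and at 24.5, 26.3 and 25.8 CPM in the clones. Every clone was above every Control line, with a log2 difference of 0.45 (SE 0.12; edgeR adjusted p = 0.176, unadjusted p = 0.00523; DESeq2 adjusted p = 0.0891). There were 1.04 to 1.37 IL18 counts for each IL18BP count in Control and 0.583, 0.807 and 0.131 in clones 1 to 3. The ratio was lower in all 3 clones, with clone 3 the lowest.

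**Figure D2:**
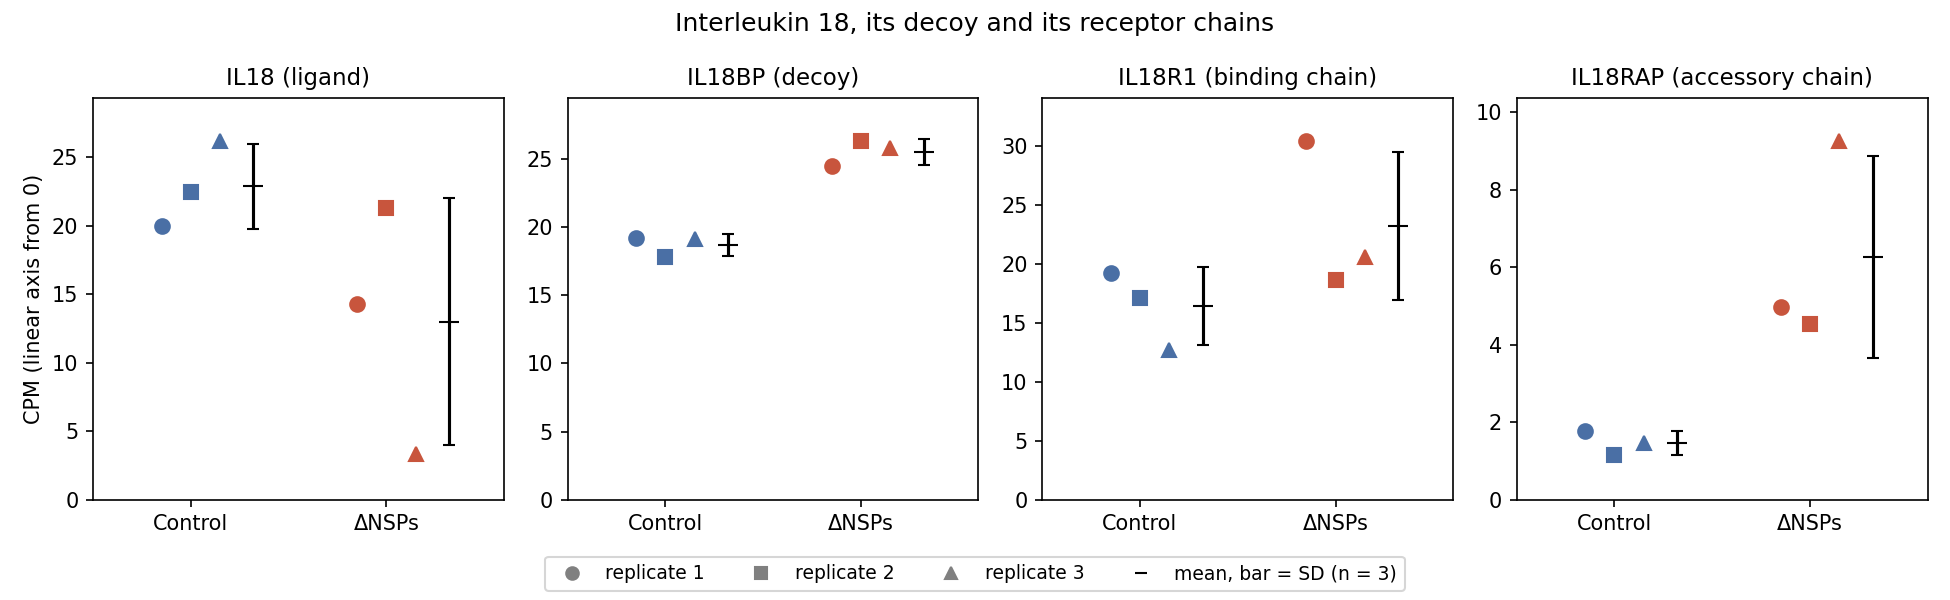
CPM (vertical axes, linear from 0) of interleukin 18, its decoy and both receptor chains in the 3 Control and the 3 ΔNSPs libraries, with the mean and SD of each group (n = 3). IL18BP and IL18RAP lie above all Control points in each clone, IL18R1 overlaps between the groups, and IL18 is lowest in clone 3.

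IL1RAP (ENSG00000196083; chromosome 3, 190514051 to 190659750) did not follow IL18RAP. It was at 18.6, 20.4 and 17.8 CPM in Control and at 14.9, 27.3 and 26.4 CPM in clones 1 to 3. Clones 2 and 3 were above all Control lines and clone 1 was below them, and the log2 difference of 0.27 (SE 0.23) had an edgeR adjusted p of 0.557. IL1B encodes interleukin 1 beta, the other cytokine that caspase-1 matures and a ligand of the receptor that IL1RAP joins. It was at 6.04, 3.98 and 3.21 CPM in Control and at 5.06, 8.1 and 5.9 CPM in the clones (log2 difference 0.53, SE 0.3, edgeR adjusted p = 0.394). IL1RN, the receptor antagonist, ranged from 2.64 to 4.07 CPM in Control and from 1.18 CPM in clone 3 to 6.28 CPM in clone 2.

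The sensor NLRP3 (ENSG00000162711; chromosome 1, 247416156 to 247449108), which assembles the inflammasome after a priming signal, overlapped widely between the groups. It was at 24, 15.3 and 14.1 CPM in Control replicates 1 to 3 and at 10.9, 43.7 and 22.1 CPM in clones 1 to 3. Clone 2 was the highest and clone 1 the lowest of all 6, a 4.01-fold range among the clones. The log2 difference of 0.52 (SE 0.45; edgeR adjusted p = 0.567) turned to -0.11 without clone 2. The 28 expressed genes within 10 Mb, at the end of the long arm, had median log2 ratios of -0.09, 0.38 and 0.44 in clones 1 to 3, against -0.64, 1.31 and 0.34 for NLRP3. The part of the neighbourhood in the NLRP3 values was not tested.

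PYCARD (ENSG00000103490; chromosome 16, 31201485 to 31203450), the gene of the adaptor ASC, was the most even of the inflammasome genes together with CASP4. It was at 120.5, 115.1 and 127.5 CPM in Control and at 128.5, 132.1 and 137 CPM in the clones, with a log2 difference of 0.13 (SE 0.09; edgeR adjusted p = 0.483). Each clone was above each Control line, though clone 1 and Control replicate 3 were close. Its counts are uncertain in another way: 54.6% of the 50-base windows of its transcripts also occur, on the opposite strand, in transcripts of its antisense partner PYCARD-AS1. PYCARD-AS1 itself was at 75.1 to 87.2 CPM in Control and 79.7 to 89 CPM in ΔNSPs, and without a stated strand setting the reads of the partners cannot be told apart.

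The inflammatory caspase genes lie side by side on chromosome 11 and differed in behaviour. CASP1 (ENSG00000137752; 105025443 to 105035250) was at 10, 12.6 and 9.1 CPM in Control and at 14, 17.7 and 14.7 CPM in the clones. All clones were above all Control lines, with means of 10.6 ± 1.82 and 15.5 ± 1.96 CPM and a log2 difference of 0.55 (SE 0.19; edgeR adjusted p = 0.212, unadjusted p = 0.0192). CASP4 (ENSG00000196954; 104942866 to 104969436), which encodes the cytosolic sensor of lipopolysaccharide, was at 30.5, 28.8 and 28.1 CPM in Control and at 29.3, 27.8 and 27.4 CPM in the clones. Its 6 values overlapped and spanned a narrow range, with a log2 difference of -0.05 (SE 0.11; edgeR adjusted p = 0.844). There were 0.324 to 0.437 CASP1 counts for each CASP4 count in Control and 0.479 to 0.636 in the clones. The 39 expressed genes around CASP1 had median log2 ratios of -0.03, -0.11 and -0.08 in clones 1 to 3.

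CARD16, which encodes a protein made of a caspase-1-like recruitment domain and lies 6075 bases from CASP1, was at 2.55 to 3.81 CPM in Control and 3.2 to 4.77 CPM in ΔNSPs. Of the 50-base windows of CASP1 transcripts, 4.37% occur in CARD16 or CARD17 as well, so a small share of these counts is uncertain. The same holds for IL1RAP and TLR4, with 4.41% and 3.83% of windows found in transcripts of other genes. CASP5, between CASP4 and CASP1, was not in the table.

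GSDMD (ENSG00000104518; chromosome 8, 143553207 to 143563062), the gene of the pore-forming gasdermin D, was at 69.8, 46.4 and 57.5 CPM in Control and at 51.3, 53 and 88 CPM in clones 1 to 3. Clone 3 was the highest and the other clones were within the Control range, so the log2 difference of 0.15 (SE 0.24; edgeR adjusted p = 0.775) became -0.15 without clone 3. In clone 2 the 72 expressed genes within 10 Mb had a median log2 ratio of -0.57, and the 344 expressed genes of the whole chromosome one of -0.59. GSDMD stood at -0.11 in that clone, above its neighbours. In clones 1 and 3 the neighbours were at 0.1 and 0.01, and GSDMD at -0.16 and 0.62. NINJ1, whose product ruptures the membrane after pores have formed, was at 17.8 to 27.3 CPM in Control and 18.2 to 26.9 CPM in ΔNSPs, and GSDME was not in the table.

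TLR4 (ENSG00000136869; chromosome 9, 117704175 to 117724730), the surface receptor for lipopolysaccharide, was at 42, 33.4 and 29.1 CPM in Control and at 34.7, 67.1 and 48.1 CPM in clones 1 to 3. Clones 2 and 3 were above all Control lines and clone 1 was within their range (log2 difference 0.52, SE 0.24; edgeR adjusted p = 0.302). Both TLR4 and NLRP3 were higher in Control replicate 1, clone 2 and clone 3 than in each of the other 3 libraries. That order was seen in 10.4% of tested genes, so 2 of 10 genes with it is not far from the background. The deviations of Control replicate 1 over all genes also correlated with those of clones 2 and 3. The part of that in the TLR4 and NLRP3 values was not tested.

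The partners that TLR4 needs at the surface were near the floor. CD14 had 0 to 4 counts per library and LY96, the gene of MD-2, 1 to 7 counts, so neither was tested, and LBP was not in the table. In bulk RNA fewer cells with a transcript and less RNA per cell cannot be told apart.

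MYD88 (ENSG00000172936; chromosome 3, 38138478 to 38143022), the adaptor of TLR4 and of the interleukin 1 and interleukin 18 receptors, was at 77.6, 84.6 and 82.6 CPM in Control and at 95, 103 and 92.9 CPM in the clones. All clones were above all Control lines by a small margin, with means of 81.6 ± 3.6 and 97 ± 5.34 CPM and a log2 difference of 0.25 (SE 0.1; edgeR adjusted p = 0.246, unadjusted p = 0.0324). IRAK4, the kinase that MyD88 recruits, was at 24.2 to 27.5 CPM in Control and 22.2 to 30.4 CPM in ΔNSPs (log2 difference 0.01, SE 0.15). TIRAP, which bridges TLR4 and MyD88, was at 5.28 to 5.54 CPM in Control and at 5.56, 3.33 and 2.27 CPM in clones 1 to 3 (edgeR adjusted p = 0.415).

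**Figure D3:**
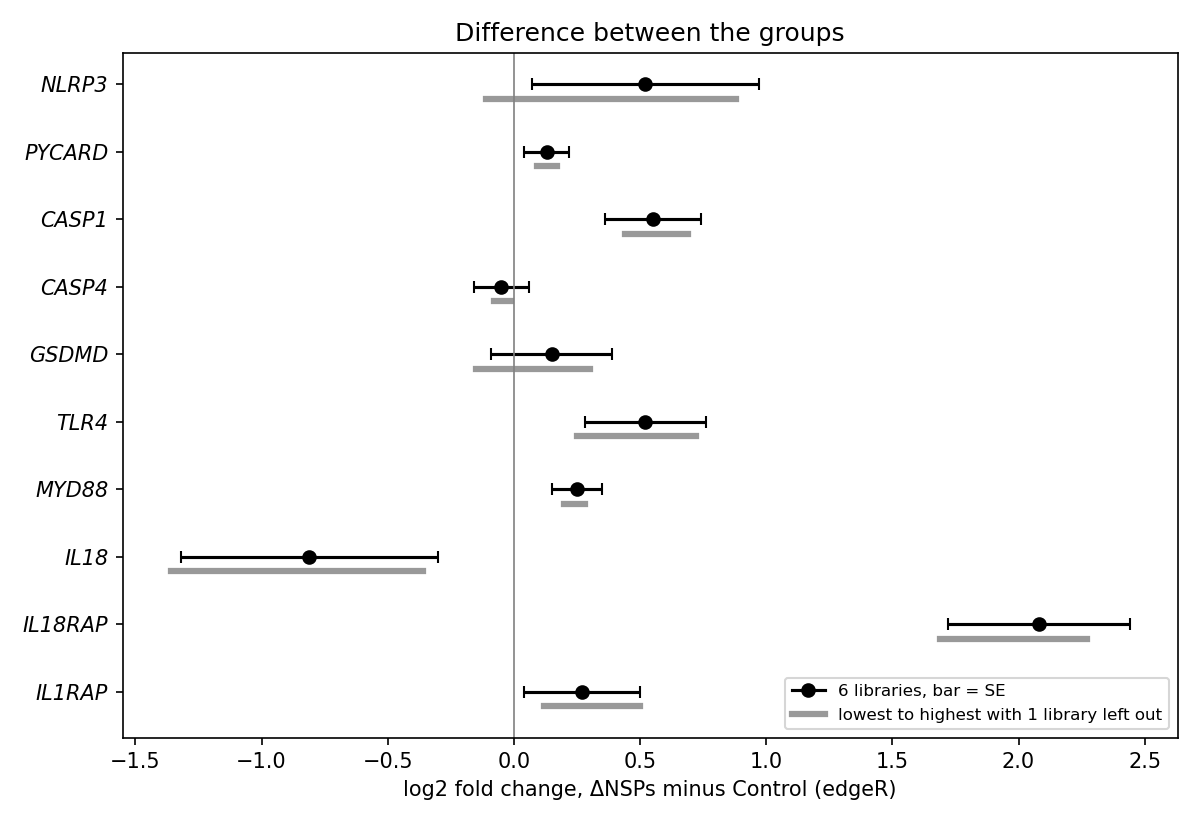
Log2 fold change of each gene, ΔNSPs minus Control (horizontal axis), from edgeR with its SE, and below it the lowest to highest value when 1 of the 6 libraries was left out. IL18RAP stays between 1.69 and 2.27, CASP1 between 0.44 and 0.69, and NLRP3 and GSDMD cross 0.

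Other genes of the same pathways were taken from lists of the inflammasome, of Toll-like receptor signalling and of the interleukin 1 family. In edgeR 0 of the 41 tested genes passed over all genes, where 0.0203% of all tested genes did. Of 29 inflammasome and pyroptosis genes 17 were tested, with 9 positive and 8 negative log2 differences and a median of 0.06. At an unadjusted p under 0.05 in edgeR, CASP8, DPP9 and NLRP12 were higher and P2RX7 lower, 3 and 1 of 17, where 9.23% of all tested genes were higher and 8.6% lower. In DESeq2 2 were higher and 2 lower at that p, without CASP8 and with NLRP6 lower, a gene too low for the edgeR filter. Over all 14797 tested genes DESeq2 had 1269 higher and 1233 lower. Limma voom had CARD8, CASP8, DPP9 and NLRP12 higher and P2RX7 lower, against 24.5% of all tested genes in either direction. P2RX7, the ATP-gated channel that triggers NLRP3, was the 1 DESeq2 call among the 50 genes of the 3 lists in the table. Some of the 50, such as NLRP1 and CD14, had no DESeq2 adjusted p and could not be called. DESeq2 called 3.98% of all the genes it adjusted, so 1 call is not above the background. P2RX7 was at 9.28, 14 and 18.4 CPM in Control and at 7.91, 6.28 and 6.49 CPM in the clones. Each clone was below every Control line (log2 difference -1.01, SE 0.27, edgeR adjusted p = 0.176, DESeq2 adjusted p = 0.0212). NEK7, which binds NLRP3 during activation, was at 64.7 to 78 CPM in Control and at 53.3, 89.6 and 95.6 CPM in clones 1 to 3. TXNIP, a redox protein reported to bind NLRP3, was at 52.5 to 76.8 CPM in Control and 41.4 to 65.5 CPM in ΔNSPs.

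Of 31 Toll-like receptor pathway genes 19 were tested, 8 with a positive and 11 with a negative log2 difference and a median of -0.13. TAB1, a partner of the kinase TAK1, was the 1 gene with an unadjusted p under 0.05 in edgeR, where 8.6% of all tested genes were lower. At that p DESeq2 had 3, all lower (TAB1, TRAF3 and IRAK2), against 1233 lower among all 14797 tested genes. Limma voom had TAB1, TRAF3, TIRAP, HSP90B1 and TAB3, also lower, against 24.5% of all tested genes in either direction. TAB1 was at 29.5 to 36.2 CPM in Control and 26.3 to 27.7 CPM in ΔNSPs (log2 difference -0.33, SE 0.12; edgeR adjusted p = 0.228). Of 19 interleukin 1 family genes 5 were tested, IL1B, IL1RN, IL18BP, IL18R1 and SIGIRR, all with a positive log2 difference in edgeR (IL1RN at -0.11 in limma voom) and a median of 0.45, against 50.3% positive over all tested genes. IL18BP was the 1 of the 5 with an unadjusted p under 0.05 in edgeR, and in DESeq2 IL18R1 was another, as was IL1B in limma voom. Over all 14797 tested genes 9.23% were higher at that p in edgeR and 1269 genes in DESeq2, and 24.5% passed in limma voom in either direction.

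Between genes, levels were compared per kilobase of annotated exons, as Control means. PYCARD was the highest at 72.9 ± 3.74 CPM per kilobase (SD, n = 3), followed by MYD88 at 20.5 ± 0.902 and GSDMD at 11.3 ± 2.28. IL18 at 8.7 ± 1.18 overlapped GSDMD across the Control lines. CASP4 (4.01), NLRP3 (3.74), CASP1 (2.86) and TLR4 (2.62 CPM per kilobase) each overlapped the next, and IL1RAP at 1.64 and IL18RAP at 0.497 were below them. With the longest coding transcript as length the first 5 places and the last were the same, and CASP1 changed places with NLRP3 and IL1RAP with TLR4. IL18RAP was thus the lowest of the 10 in Control with either length.

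**Figure D4:**
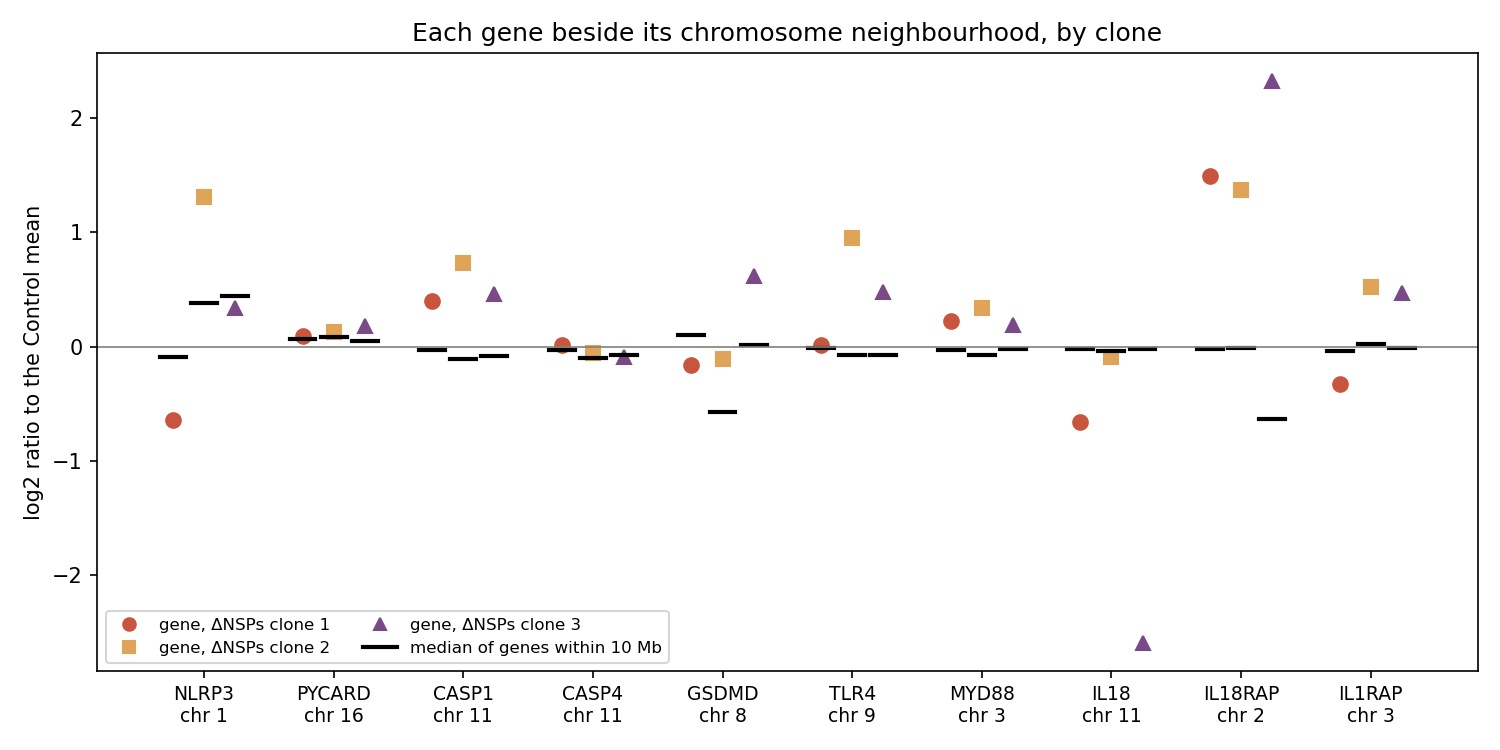
Log2 ratio to the Control mean (vertical axis) of each gene in each ΔNSPs clone, with a black bar for the median of the expressed genes within 10 Mb on the same chromosome. IL18RAP and IL18 lie far from their neighbours in clone 3, the neighbours of GSDMD are at -0.57 in clone 2, and those of NLRP3 are at 0.38 and 0.44 in clones 2 and 3.

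IL18RAP is best known in T and natural killer cells, and their markers were read beside it. Of 12 such markers 5 were in the table, and the defining CD3D, CD3E and NCR1 were not among them. The summed level was 176.3 to 257.6 CPM in Control and 137.4 to 186.1 CPM in ΔNSPs, nearly all of it NKG7, which was lower in clones 2 and 3 than in any Control line. GZMA, a granzyme of these cells, went the other way, with 0 counts in each Control library and 9, 34 and 5 counts in clones 1 to 3, too few to be tested in edgeR. NCAM1 followed neither, at 3.23 to 5.14 CPM in Control, 10.6 CPM in clone 1 and 2.27 CPM in clones 2 and 3. CD2 had 0 to 5 and CD247 1 to 4 counts per library. The part of such cells or genes in the IL18RAP values was not tested. The tested genes whose pattern over the 6 libraries was closest to that of IL18RAP, by root mean square difference of centred log2 CPM, were AL354719.2 (0.28), AC009090.4 (0.29) and TRAC (0.32), where the median gene was at 1.05. AL354719.2 was at 0.0724 to 0.26 CPM in Control and 1.06 to 2.27 CPM in the clones. AC009090.4 was at 0.145 to 0.426 CPM in Control and 0.927 to 1.35 CPM in the clones. The Control values of both were near the floor, so their likeness rests on few counts. TRAC, the constant segment of the T cell receptor alpha gene, was at 0.596, 0.507 and 0.347 CPM in Control and at 1.14, 1.51 and 3.79 CPM in the clones, with 4 to 45 counts per library. All clones were above all Control lines, which follows largely from its choice by likeness to IL18RAP and is no separate support. For NLRP3 the closest were AC069281.2, SYNE1 and ADTRP, at 0.06, 0.06 and 0.19, and for IL18 they were AC018413.1, SNX24 and ZNF516, at 0.14, 0.2 and 0.23. In clone 3 AC018413.1 and SNX24 were below the floor, at 0.168 and 0 CPM.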

How the data were processed

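The table that the authors deposited holds raw counts for each Ensembl gene in 6 columns, not normalized. The submitters' processing notes list HTSeq 0.11.1, SAMtools 1.5.9, HISAT2 2.0.0, FastQC and the GRCh38.p12 build. Strand setting, annotation release and filters are not given in the sources used. Each gene had at least 10 counts over the 6 libraries. Symbols, positions and lengths came from GENCODE v29, with 18771 of 18798 identifiers matched. edgeR 4.0.16 (R 4.3.3) was run with TMM scaling, filterByExpr and quasi-likelihood tests, two-sided, with Benjamini-Hochberg adjustment over all 14797 tested genes. CPM used TMM-scaled library totals, and log2 differences are edgeR's log2 fold changes, ΔNSPs minus Control. DESeq2 1.42.0, limma 3.58.1 (voom with quality weights), other scalings and filters, a replicate block and leaving out each library were alternatives. Neighbourhood medians took genes averaging 8 CPM or more within 10 Mb and a pseudocount of 0.5 CPM. The scripts were tested on simulated data. There edgeR recovered 53% of 2-fold differences, DESeq2 69% and limma voom 52%. False calls made up 6.21%, 13.6% and 7.69% of their calls. Libraries of a group differed beyond sampling noise (chi-square per degree of freedom at least 6.37). The genes and lists were chosen with earlier results of these data known. The text names the 10 genes, their direct partners, the depleted genes, list genes called by edgeR or DESeq2, and the 3 most similar genes for 3 of the 10. CARD8, CASP8, DPP9, NLRP6, NLRP12, TAB1, TRAF3, IRAK2, HSP90B1, TAB3 and the cell type markers given singly were added after their values were seen.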

Additional observations from a re-analysis of the deposited data

How the results depend on the processing

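Of the 10 genes, edgeR called 0 with all 6 libraries, DESeq2 called 1 (IL18RAP), and leaving out 1 library gave 0 to 1 calls. Over all genes edgeR called 3, DESeq2 515, edgeR with robust dispersions 1, and leaving out 1 library gave 0 (without Control replicate 2 or 3, with 1408 and 1413 at an unadjusted p under 0.05) to 928 (without clone 1). Of the pathway list genes edgeR called 0 of 41 and DESeq2 1 of 50 (P2RX7), where DESeq2 called 3.98% of all the genes it adjusted. Some of the 50 had no DESeq2 adjusted p. The replicate numbers did not pair the libraries, since same-numbered libraries had deviation correlations of -0.523, -0.212 and -0.198 and none correlated best with its own number. With the replicate block edgeR called 0 genes in all and 0 of the 10 (1779 and 2 at an unadjusted p under 0.05), with IL18RAP at an adjusted p of 0.405. No scaling or filter turned the direction of any of the 10 genes. Directions that turned were those of NLRP3 without clone 2 (-0.11 to 0.88 over the 6 libraries left out in turn), GSDMD without clone 3 (-0.15 to 0.3), NINJ1 (-0.3 to 0.03) and, less the neighbourhood median, CASP4 (0.02). IL1RN, at 0.25, was at -0.11 in limma voom and between -0.32 and 0.67 with 1 library left out. IRAK4, at 0.01, was at -0.01 without scaling and with upper quartile scaling, at -0.0025 with the block, and from -0.13 to 0.1 with 1 library left out. Depth limits CD14, LY96 and IL1R1, which had at most 10 counts in a library.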
